A study of Mus musculus with 20 samples.

Results

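Neocortex (NCX) and hippocampus (HP) from the same mice were compared between genotypes to describe the changes in gene expression that both regions share when the 3 genes of the amyloid precursor protein family are removed together. Of the 20 RNA-seq libraries of the series, 18 were used: 5 control and 4 cTKO libraries of the hippocampus, and 5 control and 4 cTKO libraries of the neocortex, which makes 8 cTKO against 10 control libraries. All mice were 3 months old, of both sexes, and on a hybrid background of C57BL/6J and 129. Both genotypes carried the floxed alleles fAPP, fAPLP1 and fAPLP2, so that the controls, labelled wild type, were floxed littermates without Cre. The conditional triple knockout (cTKO) mice, labelled APP/APLP1/APLP2 -/-, carried the Camk2a-Cre transgene in addition, whose promoter drives recombination after birth in excitatory neurons of the forebrain. The transgene does not target interneurons, glia or vascular cells, and each library holds the RNA of all these cells. The Cre transgene was absent from every control, so that its presence and the loss of the floxed genes cannot be told apart. RNA of the neocortex and of the hippocampus was extracted with different kits, which sets the regions apart but is the same for both genotypes.

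Depth ranged from 12169474 to 25331954 counts per library over the 18 libraries, with a median of 20751909.5. A count of 0 then allowed up to 0.118 to 0.247 CPM (counts scaled to a common library total), taken as 3 counts of the library, and covers counting error only. The hippocampal cTKO library 4 and the neocortical cTKO library 5 were left out because they hold reads of embryonic tissue: their summed CPM of the embryonic marker list, 29 genes, was 650.5 and 1075, against 78.75 to 401.7 in the other 18. Libraries with the same number were taken to come from the same mouse, which the labels do not state, and this gives 10 mice. A choroid plexus marker sum of 2888 CPM in the hippocampal control library 3, against 88.7 to 648 CPM in the other hippocampal libraries, was the other feature that set a library apart. Libraries with Xist were 2 of 5 hippocampal controls, 2 of 4 hippocampal cTKO, 2 of 5 neocortical controls and 1 of 4 neocortical cTKO libraries.

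APP and its homologs APLP1 and APLP2 are single-pass membrane proteins that are abundant at synapses. They are cut by secretases, which release the ectodomain outside the cell and an intracellular domain that binds adaptors and has been proposed to take part in transcription. The family overlaps in function, and its loss in forebrain neurons is known to affect synaptic plasticity and excitability, which depend on the release machinery of the active zone, on endocytosis of vesicles and on ion channels.

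The floxed genes fell in both regions, and for none of them did the fall differ between the regions at an FDR under 0.05. App (positions here and below are those of RefSeq in GRCm38.p6, chr16:84952666-85175255) stood at 1654, 1528, 1376, 1535 and 1503 CPM in hippocampal controls 1 to 5 and at 442, 432, 429.7 and 462 CPM in hippocampal cTKO libraries 1, 2, 3 and 5. In the neocortex, App was 1805, 1606, 1617, 1510.0 and 1487 CPM in the controls and 403, 401, 374 and 356 CPM in cTKO libraries 1 to 4. No cTKO value came near a control value in either region. App fell by 73.7% (log2 -1.93, SE 0.0561, FDR 5.67e-16), where log2 is the common log2 fold change of cTKO over control from edgeR's quasi-likelihood test with region as an additive term, SE its standard error, and FDR the Benjamini-Hochberg adjusted p over all genes tested. Aplp1 (chr7:30434980-30445582) was 1261 ± 77.3 CPM (SD, n = 5) in hippocampal controls and 342 ± 19.9 CPM (SD, n = 4) in cTKO, and 1204 ± 42.9 against 331 ± 41.3 CPM (SD, n = 5 and 4) in the neocortex. It fell by 72.8% (log2 -1.88, SE 0.0523, FDR 4.64e-16). Aplp2 (chr9:31149557-31211848) was 618 ± 74.6 against 265 ± 24.8 CPM (SD, n = 5 and 4) in the hippocampus and 759 ± 91.7 against 250.0 ± 13 CPM (SD, n = 5 and 4) in the neocortex, and it fell by 62.4% (log2 -1.41, SE 0.0815, FDR 3.58e-10). In bulk tissue, fewer cells of a type and less RNA per cell cannot be told apart, here and for the genes that follow.

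Beyond the floxed genes, the effect common to both regions was mostly made of small changes in well expressed genes. Of 14116 genes tested, 587 (4.16%) were called at an FDR under 0.05, 320 up-regulated (2.27%) and 267 down-regulated (1.89%) in the cTKO. Both libraries of a mouse entered this fit as separate samples, and with mouse as a random block 409 genes were called. The median absolute log2 fold change of the 587 called genes was 0.34, a factor of 1.26, and the smallest called change was 0.13, while the median over all genes tested was -0.0037. Of the 587, 419 moved by less than 0.5 on the log2 scale (220 up, 199 down), 36 rose by more than 1 and 12 fell by more than 1. The small changes sat in genes with many reads: the median level was 76.1 CPM for called genes under 0.5, 8.21 CPM for those between 0.5 and 1 and 3.89 CPM for those over 1, with median standard errors of 0.0633, 0.149 and 0.253. A gene had to hold many reads for a small change to be called, so this order is partly set by the test.

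Both regions contributed to these calls. In 412 genes (2.92% of those tested; 223 up, 189 down) the change was called and also had an unadjusted p under 0.05 in the same direction in each region on its own, and 294 of these were under 0.5 (151 up, 143 down). The p-values of each region come from the same libraries as the call, so these counts are a description and not a separate test. The hippocampus alone called 190 genes (1.35%) and the neocortex alone 65 (0.46%) at an FDR under 0.05 in the same 18 libraries. Every cTKO library lay on the same side of every control library in both regions for 94 genes (0.666%; 61 higher, 33 lower), 92 of them called, and 56 of the 294 small shared changes were of this kind. For 64 called genes the hippocampus on its own had an unadjusted p of 0.05 or more, and for 111 the neocortex had. The genotype effect differed between the regions at an FDR under 0.05 for 11 genes (0.0779%), 7 of them called. At an unadjusted p under 0.05 for this difference there were 584 of the 14116 genes tested and 70 of the 587 called. With 1 library left out, the count of called genes ran from 376 without hippocampal control 4 to 843 without hippocampal cTKO 5, and was 383 without hippocampal cTKO 1. Summing the 2 libraries of a mouse, for the 3 cTKO and 5 control mice that have both, left 130 called genes, 120 of them among the 587.

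**Figure D1:**
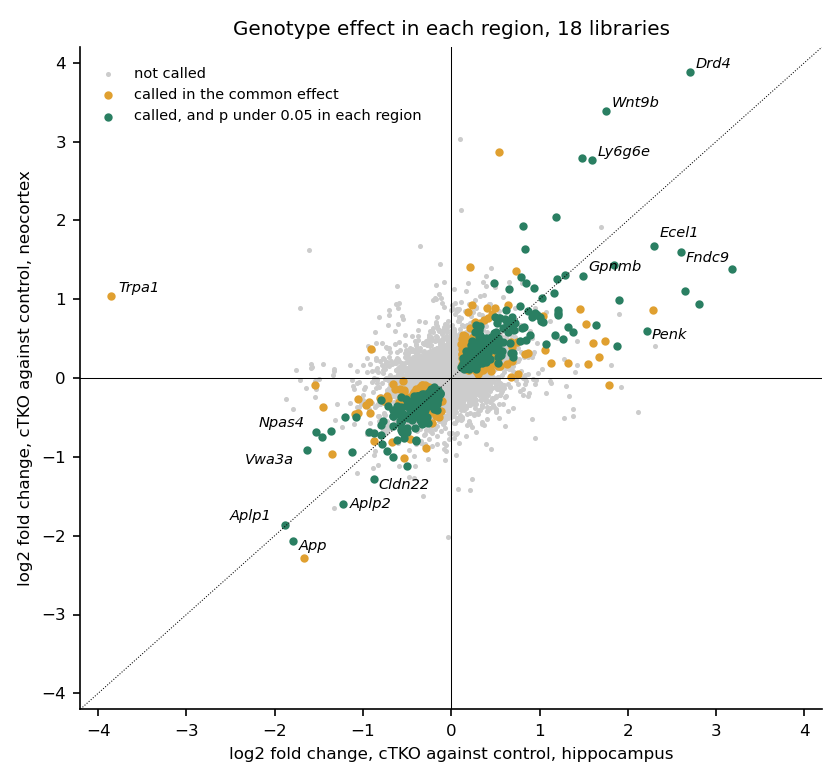
Genotype effect in the neocortex (log2 fold change of cTKO over control, y axis) against that in the hippocampus (x axis) for the 14116 genes tested, one point per gene. Of the 587 genes called in the common fit, the 412 with an unadjusted p under 0.05 in each region are green and the others orange; they lie mostly in the quadrants where both regions moved the same way.

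The small falls of lowest FDR were led by genes of the presynaptic active zone. Ppfia3 (chr7:45339126-45367019), which encodes a liprin-alpha scaffold of the active zone, stood in the hippocampus at 172, 184, 171, 190.1 and 180.4 CPM in controls and at 137, 149.7, 149.5 and 147 CPM in cTKO mice. In the neocortex, Ppfia3 was 213, 215, 215, 226 and 231 CPM in controls and 159, 164, 153 and 170.2 CPM in cTKO mice. The genotypes did not overlap in either region, and the gap was wider in the neocortex (log2 -0.45) than in the hippocampus (log2 -0.31), though the difference between regions did not pass the test (FDR 0.9998). Ppfia3 fell by 22.9% (log2 -0.38, SE 0.0409, FDR 2.38e-05). Rims1 (chr1:22285972-22806158), a scaffold that docks and primes vesicles and tethers calcium channels, was 154, 161, 174, 184 and 168 CPM in hippocampal controls and 132, 111, 145 and 139.8 CPM in hippocampal cTKO mice. In the neocortex, Rims1 was 284, 281, 269.5, 286 and 268 CPM in controls and 186, 209, 188 and 187 CPM in cTKO mice. Here too every cTKO library lay below every control, and Rims1 fell by 26.4% (log2 -0.44, SE 0.0541, FDR 0.000106).

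Prkcb (chr7:122289104-122634402), a calcium-dependent protein kinase C, was 1272, 1182, 1301, 1311 and 1418 CPM in hippocampal controls and 909, 815, 1148 and 1105 CPM in hippocampal cTKO mice. In the neocortex, Prkcb was 1731, 1597, 1629, 1588 and 1512 CPM in controls and 1230.1, 1292, 1319 and 1216 CPM in cTKO mice. The fall was of like size in the regions (log2 -0.39 and -0.35) and the groups did not overlap. Prkcb fell by 22.6% (log2 -0.37, SE 0.0568, FDR 0.000758). B3gat1, the glucuronyltransferase that makes the HNK-1 carbohydrate of neural adhesion molecules, had 258 to 296 CPM in hippocampal controls against 217 to 249 in cTKO mice, and 263 to 303 against 215 to 246 CPM in the neocortex, and fell by 17% (log2 -0.27, SE 0.0435, FDR 0.00125). Ptpru, a receptor tyrosine phosphatase, fell by 26.9% (log2 -0.45, SE 0.0794, FDR 0.00234). Tub, the founding member of the tubby family, whose gene overlaps Ric3, fell by 22.3% (log2 -0.36, SE 0.0621, FDR 0.00192). Zbtb4, a zinc finger protein that binds methylated DNA, fell by 15.2% (log2 -0.24, SE 0.0413, FDR 0.00218), and 2900026A02Rik, of unnamed function, fell by 19.4% (log2 -0.31, SE 0.0525, FDR 0.00171). In these genes too the cTKO libraries of a region were all lower than its controls, which is in part how genes of lowest FDR come to be named.

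The libraries left out of the fit gave a further reading of the small falls that the calls had not used. By number, their mice also gave hippocampal cTKO 5 and neocortical cTKO 4, which were in the fit. The reading is therefore not of unused mice. The hippocampal cTKO library 4 lay below all 5 hippocampal controls for 8 of the 8 small falls, and the neocortical cTKO library 5 lay below all 5 neocortical controls for 8 of 8. Ppfia3 was 127 CPM in the first against a lowest control of 171 CPM, and 142 CPM in the second against 213 CPM. Rims1 was 125 CPM against a lowest control of 154 CPM, and 216 CPM against 268 CPM. For 2900026A02Rik the neocortical gap was narrow, 74.3 CPM against 74.6 CPM. The left-out library was scaled over all 20 libraries and the controls over 18, so this gap decides nothing. Both left-out libraries hold embryonic RNA, whose part in these values was not tested. The share of all genes tested that lay below every control in these libraries was not counted. The counts of 8 of 8 are therefore a description and not a result about these genes.

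The small rises of lowest FDR held adaptors of clathrin coats and a further set of presynaptic proteins. Ap1s1 (chr5:137034993-137046108), the sigma subunit of the AP-1 adaptor of the trans-Golgi network and endosomes, was 169.5, 195, 172, 169 and 159 CPM in hippocampal controls and 252, 236, 218 and 219 CPM in hippocampal cTKO mice. In the neocortex, Ap1s1 was 136, 134, 139, 147 and 137 CPM in controls and 172, 176, 167 and 179 CPM in cTKO mice. All cTKO values lay above all control values of their region. Ap1s1 rose 1.29-fold (log2 0.37, SE 0.0435, FDR 6.78e-05). Ap2a2 (chr7:141562180-141633011, overlapping the predicted gene Gm16982), a large subunit of the AP-2 adaptor that sorts cargo at the plasma membrane, was 271, 269.9, 258, 288 and 268 CPM in hippocampal controls and 335, 341, 324 and 329 CPM in cTKO mice. In the neocortex, Ap2a2 was 239, 223, 236, 237 and 219.7 CPM in controls and 293, 268, 253 and 303 CPM in cTKO mice. The genotypes stayed apart in both regions and the changes were alike (log2 0.29 in the hippocampus, 0.27 in the neocortex), for a rise of 1.22-fold (log2 0.28, SE 0.0401, FDR 0.000438).

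Rimbp2 (chr5:128757788-128953644), a RIM-binding protein that links calcium channels to the release site, was 95.8, 91, 96, 94 and 86 CPM in hippocampal controls and 145, 139.7, 136 and 97.1 CPM in hippocampal cTKO mice. In the neocortex, Rimbp2 was 145, 136, 136, 142 and 148 CPM in controls and 199, 178, 183 and 178 CPM in cTKO mice. Its hippocampal gap came down to 97.1 CPM in cTKO mouse 5 against 96 CPM in the highest control, and in the neocortex the groups were well apart. Rimbp2 rose 1.35-fold (log2 0.43, SE 0.0597, FDR 0.000371). Syn2 (chr6:115134902-115282626, overlapping Timp4), a synapsin that holds vesicles in the reserve pool, was 794, 762, 699, 783 and 746 CPM in hippocampal controls and 879, 924, 846 and 976 CPM in hippocampal cTKO mice. In the neocortex, Syn2 was 583, 522, 537, 513 and 517 CPM in controls and 813, 678, 658 and 773 CPM in cTKO mice. The groups did not overlap, and Syn2 rose 1.28-fold (log2 0.35, SE 0.0508, FDR 0.00049). Of the others, Ehd3, an endosomal recycling ATPase, rose 1.35-fold (log2 0.43, SE 0.0641, FDR 0.00066), Tpm1, an actin-binding tropomyosin, rose 1.22-fold (log2 0.29, SE 0.0409, FDR 0.000464), and Cadm3, a neuronal cell adhesion molecule, rose 1.25-fold (log2 0.32, SE 0.0395, FDR 0.000132). Slc7a14, a lysosomal cationic amino acid transporter, rose 1.38-fold (log2 0.47, SE 0.0673, FDR 0.00049) and was the gene of these 8 rises whose groups overlapped, with 168 CPM in neocortical cTKO 3 inside the control range of 161 to 172 CPM.

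The left-out libraries did not follow the small rises as they followed the falls. Hippocampal cTKO 4 lay above every hippocampal control for 5 of the 8 rises and within the controls for 3. For Cadm3 this rested on 572 CPM against a highest control of 571 CPM, scaled over different sets of libraries, so this gap decides nothing. Neocortical cTKO 5 lay above every control for 2, within them for 5 and below them for 1, Syn2, at 499 CPM against a lowest control of 513 CPM. Ap1s1 was 141 CPM and Rimbp2 137 CPM in this library, both within the control range. Tpm1 and Slc7a14 were the rises that both left-out libraries showed. The part of the embryonic RNA in these values was not tested, and the share of all genes tested that lay above every control was not counted. Reads of Cadm3 cannot be told from those of Ackr1 and Aim2 where these genes overlap, since strand handling during counting is not stated in the sources used here.

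**Figure D2:**
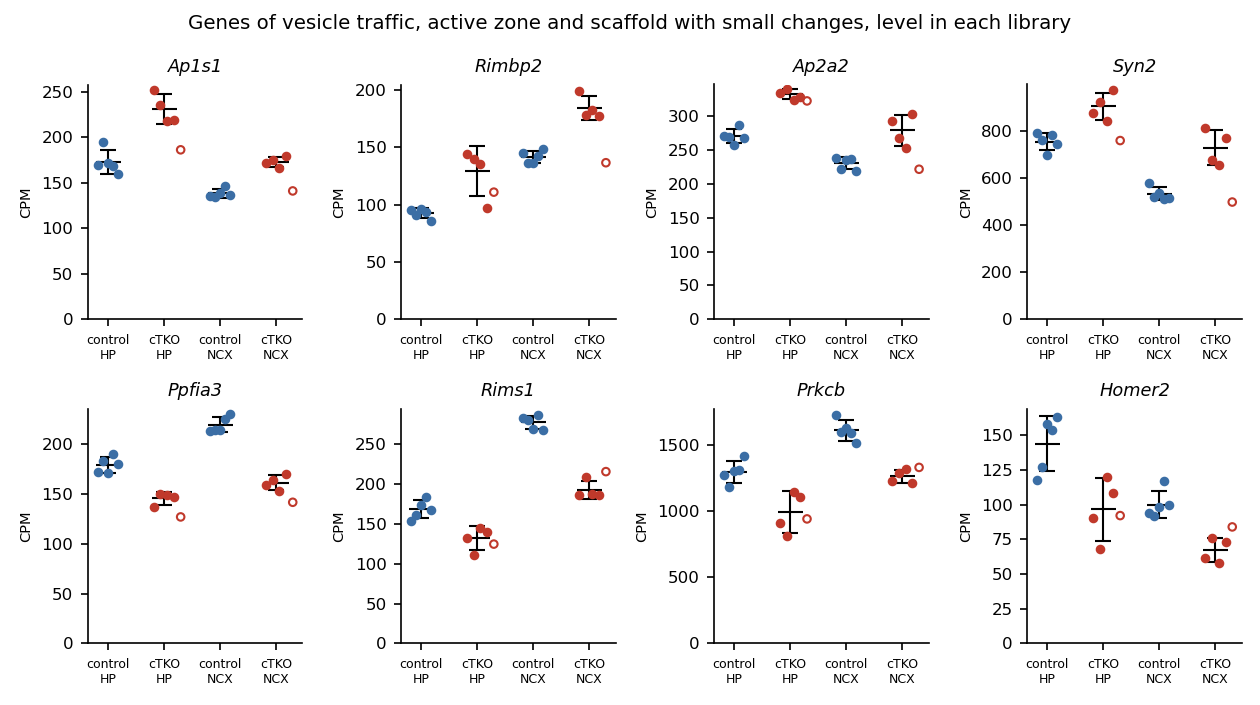
Level in CPM (y axis) of 8 genes with small shared changes, in controls and cTKO mice of the hippocampus and the neocortex; each point is a library, bars give the mean and SD over the libraries used (n = 5 controls and 4 cTKO) and open points are the left-out cTKO libraries. Filled cTKO points lie above all controls for Ap1s1, Rimbp2, Ap2a2 and Syn2 and below them for Ppfia3, Rims1 and Prkcb in both regions, while Homer2 overlaps in the hippocampus.

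Genes of the synaptic release machinery therefore moved in both directions. The gene lists, here and below, were written with earlier results of these data known, so their shares called are descriptions and not tests. Of 40 genes of the active zone and vesicle list tested, 4 rose (Rimbp2, Syn2, Sv2c and Slc17a7), 3 fell (Rims1, Rims2 and Ppfia3) and 33 were not called, 17.5% called against 4.16% of all genes tested, with a list median of 0.03 against -0.0037 over all genes. Sv2c, a synaptic vesicle glycoprotein, was 11.1 to 15.3 CPM in hippocampal controls and 19.99 to 27.8 CPM in cTKO mice, and 19.4 to 25.1 against 19.5 to 51.1 CPM in the neocortex, where cTKO library 3 stayed within the controls. It rose 1.67-fold (log2 0.74, SE 0.127, FDR 0.00216). Slc17a7, the vesicular glutamate transporter of cortical excitatory neurons, was 1561, 1613, 1408, 1663 and 1551 CPM in hippocampal controls and 2051, 1982, 1709.6 and 1672 CPM in cTKO mice. In the neocortex, Slc17a7 was 1443, 1376, 1566, 1570.2 and 1553 CPM in controls and 1885, 1695, 1682 and 2096 CPM in cTKO mice. Both regions showed every cTKO library above every control, and Slc17a7 rose 1.2-fold (log2 0.27, SE 0.0535, FDR 0.00647). The large scaffolds were not called: Bsn had log2 0.01, FDR 0.968, and Pclo log2 -0.11, FDR 0.617. The list gave 4 rises and 2 falls with mouse as a random block, and 7 rises and 2 falls without both libraries of cTKO mouse 3.

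At the postsynaptic side 38 genes were tested, of which 1 rose, 2 fell and 35 were not called (7.89%). Homer2, a scaffold that links metabotropic glutamate receptors to calcium stores, was 118, 127, 158, 154 and 163 CPM in hippocampal controls and 90.3, 67.8, 120.0 and 108 CPM in hippocampal cTKO mice. In the neocortex, Homer2 was 94.1, 91.5, 98.1, 117 and 99.7 CPM in controls and 61.2, 75.7, 58.1 and 72.8 CPM in cTKO mice. Hippocampal cTKO 3, at 120.0 CPM, lay within the controls, and in the neocortex the groups were apart. Homer2 fell by 33.1% (log2 -0.58, SE 0.0947, FDR 0.00134), with the same log2 change in both regions (-0.58 and -0.58). Camk2a, the abundant calcium/calmodulin kinase of the postsynaptic density and the gene whose promoter drives the Cre transgene, was 7129 to 8327 CPM in hippocampal controls and 6472 to 7741 CPM in cTKO mice, and 5472 to 6061 against 3955 to 5505 CPM in the neocortex. Its ranges overlapped in both regions, and it fell by 15.6% (log2 -0.25, SE 0.0569, FDR 0.0184). Dlg4, the main postsynaptic scaffold (log2 -0.09, FDR 0.309), and Grin1, the obligate NMDA receptor subunit (log2 0.08, FDR 0.369), were not called.

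Neuronal activity induces genes in waves, first transcription factors and phosphatases and later secreted factors and peptides. Immediate early genes that were called mostly fell. Of 29 tested, 4 fell, 1 rose and 24 were not called (17.2% called), with a list median of -0.0954. The summed level of the list was 1069 to 1679 CPM in hippocampal controls and 1063 to 2717 CPM in cTKO mice. In the neocortex the sums were 1968 to 3377 against 1836 to 2691 CPM, so they overlapped in both regions. Npas4 (chr19:4984353-5003439), a transcription factor induced by calcium entry, was 23.3, 19.7, 9.57, 13.8 and 19.5 CPM in hippocampal controls and 6.36, 5.88, 9.23 and 3.44 CPM in hippocampal cTKO mice. In the neocortex, Npas4 was 48, 51.5, 38.2, 41.4 and 58.7 CPM in controls and 27.7, 26.8, 28.2 and 31 CPM in cTKO mice. The groups did not overlap, although hippocampal cTKO 3 at 9.23 CPM came close to control 3 at 9.57 CPM, and Npas4 fell by 52.3% (log2 -1.07, SE 0.175, FDR 0.00134). Btg2 (chr1:134074865-134079155), an antiproliferative early gene, was 18.3, 21.9, 15.8, 17.8 and 17.4 CPM in hippocampal controls and 11.2, 13.8, 14.5 and 10.5 CPM in hippocampal cTKO mice. In the neocortex, Btg2 was 20.8, 24.6, 18.3, 18.3 and 21.4 CPM in controls and 13.3, 10.6, 14.6 and 14.8 CPM in cTKO mice. Every cTKO library lay below every control, and Btg2 fell by 33.9% (log2 -0.60, SE 0.0869, FDR 0.00052).

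Cyr61, a secreted matricellular early gene, fell by 36.2% (log2 -0.65, SE 0.153, FDR 0.020), with 4.44 to 10.1 CPM in hippocampal controls against 3.86 to 6.48 CPM in cTKO mice. Dusp1, a MAP kinase phosphatase, had log2 -0.44 (FDR 0.0301), of which the hippocampus gave -0.59 and the neocortex -0.30 with an unadjusted p of 0.0578. Ier5 went the other way, with 27.4 to 32.5 CPM in hippocampal controls and 45.4 to 92.9 CPM in cTKO mice, and rose 1.63-fold (log2 0.71, SE 0.151, FDR 0.0109), with an unadjusted p of 0.068 in the neocortex. The best known early genes were not called: Fos had log2 -0.43, FDR 0.387, Egr1 log2 -0.27, FDR 0.448, Nr4a1 log2 -0.31, FDR 0.0972 and Arc log2 0.02, FDR 0.968. Summed per mouse, 1 early gene was called, and it was lower.

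Late activity-regulated genes that were called mostly rose. Of 25 tested, 12 rose, 1 fell and 12 were not called (52% called), with a list median of 0.352 against -0.0037 over all genes. The list's members were chosen with earlier results of these data known, so this share and median are descriptions and not tests. Bdnf (chr2:109674700-109727043), the neurotrophin released by active neurons, was 44.7, 43.3, 47.2, 39.5 and 42.2 CPM in hippocampal controls and 91.5, 98.6, 163 and 50.1 CPM in hippocampal cTKO mice. In the neocortex, Bdnf was 45.6, 37.2, 35.8, 28 and 41.3 CPM in controls and 74.1, 53.5, 86.6 and 60.9 CPM in cTKO mice. All cTKO libraries lay above all controls in both regions, and Bdnf rose 2.06-fold (log2 1.04, SE 0.156, FDR 0.00066). Scg2 (chr1:79434366-79440026), a granin of dense-core vesicles, was 268, 288, 257, 255 and 292 CPM in hippocampal controls and 311, 355, 469 and 311 CPM in hippocampal cTKO mice. In the neocortex, Scg2 was 252, 285, 256, 229 and 248 CPM in controls and 344, 305, 324 and 305 CPM in cTKO mice. Its groups were apart in both regions, and it rose 1.29-fold (log2 0.37, SE 0.069, FDR 0.0042).

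Rgs2, which speeds the shut-off of G protein signalling, was 37.9, 37.4, 39.2, 33.2 and 44.2 CPM in hippocampal controls and 58.1, 49.7, 93.6 and 44.6 CPM in hippocampal cTKO mice. In the neocortex, Rgs2 was 58.5, 56.3, 55.9, 50.02 and 53.3 CPM in controls and 67.7, 75.9, 123 and 84.3 CPM in cTKO mice. The hippocampal gap narrowed to 44.6 against 44.2 CPM, and Rgs2 rose 1.6-fold (log2 0.68, SE 0.121, FDR 0.00298). Vgf, a neurosecretory peptide precursor, rose 1.53-fold (log2 0.61, SE 0.115, FDR 0.0042), with 144 to 208 CPM in hippocampal controls and 175 to 400.4 CPM in cTKO mice, and 267 to 336 against 387 to 525 CPM in the neocortex. Rasgrp1, a Ras exchange factor activated by diacylglycerol, made the smallest rise among them that was also seen in each region (log2 0.25, FDR 0.00546). Bmp3 rose 2.63-fold (log2 1.40, SE 0.176, FDR 0.000134), Npy rose 1.99-fold (log2 0.99, SE 0.179, FDR 0.00308) and Penk rose 2.66-fold (log2 1.41, SE 0.218, FDR 0.000786). Nptx2, a secreted pentraxin that clusters AMPA receptors, rose 3.11-fold (log2 1.64, SE 0.333, FDR 0.00784), but the size rested on cTKO mouse 3: the log2 change was 0.74 without both its libraries, still called, and 1.22 with mouse as a random block, and summed per mouse the FDR was 0.0631. Cort, the interneuron peptide cortistatin, was the member that fell (log2 -0.62, FDR 0.0301). Summed per mouse, 6 were called, all higher, and with mouse as a random block 9 rose and 1 fell.

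These rises differed in size between cTKO mice. For the 12 late genes called higher, cTKO mouse 5 was the lowest of the 4 hippocampal cTKO libraries in 12 of 12, and it lay above the controls in 6, within their range in 5 and below them in 1, Inhba, at 1.78 CPM against 2.37 to 4.81 CPM. Vgf in this library was 175 CPM against 144 to 208 CPM in controls. Mouse 3 was the highest in 10 of 12 in the hippocampus and in 6 of 12 in the neocortex. Bdnf reached 163 CPM and Nptx2 170.4 CPM in its hippocampus, against 75.2 to 410.2 CPM for Nptx2 over the neocortical cTKO libraries, the top value again being mouse 3. Without both libraries of mouse 3 the late list gave 10 rises and 1 fall, and without the hippocampal library of mouse 5 it gave 12 and 1.

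**Figure D3:**
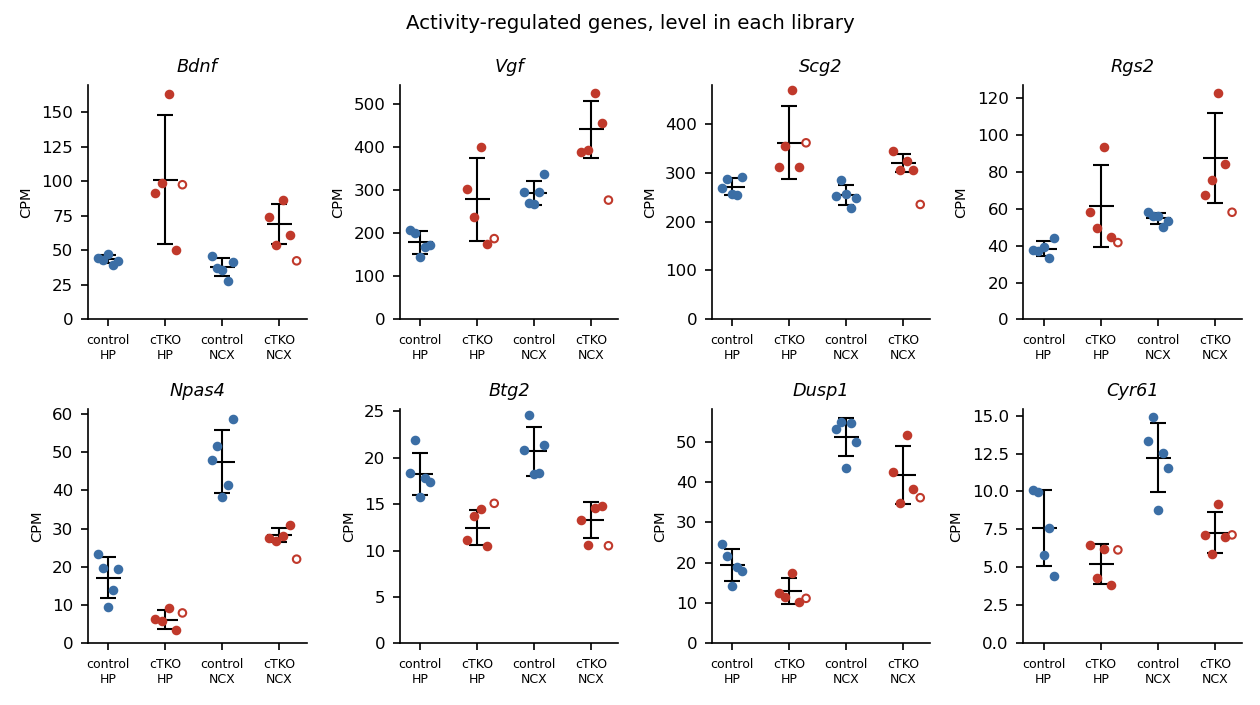
Level in CPM (y axis) of 8 activity-regulated genes in controls and cTKO mice of the hippocampus and neocortex; points are libraries, bars the mean and SD (n = 5 controls and 4 cTKO) and open points the left-out cTKO libraries. By group mean, the late genes Bdnf, Vgf, Scg2 and Rgs2 are higher and the early genes Npas4, Btg2, Dusp1 and Cyr61 lower in cTKO mice. Dusp1 and Cyr61 overlap the controls in both regions and Vgf in the hippocampus. The hippocampal library of cTKO mouse 5 is near the controls for the late genes.

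Many early and late activity genes carry cyclic AMP response elements (CREs), so the promoters of the called members that the table holds were searched for the full palindrome TGACGTCA, which reads the same on both strands and contains the half-sites TGACG and CGTCA. The window was the RefSeq promoter of GRCm38.p6, 300 bases of the gene's strand from 250 before to 50 after the start. The palindrome stood in 1.79% of 32851 promoters of the table, and in at least 1 promoter of 3.54% of the 11177 tested genes found there, 4.38% of 251 called higher and 5.14% of 214 called lower. Promoters were found for 22 of the 29 early genes tested, of which 3 held it (13.6%), and for 17 of the 25 late genes, of which 3 held it (17.6%). The called members Bmp3, Nptx2, Nrn1, Penk and Vgf had no entry and were not searched. Of the called members searched, those that held it were Btg2 and Dusp1, which fell, and Scg2, which rose. Their promoters are shown because the same element stood in genes that moved in opposite directions, with the palindrome in capitals; the regions are chr1:134079106-134079405, chr17:26508423-26508722 and chr1:79439977-79440276, all on the minus strand.
Btg2: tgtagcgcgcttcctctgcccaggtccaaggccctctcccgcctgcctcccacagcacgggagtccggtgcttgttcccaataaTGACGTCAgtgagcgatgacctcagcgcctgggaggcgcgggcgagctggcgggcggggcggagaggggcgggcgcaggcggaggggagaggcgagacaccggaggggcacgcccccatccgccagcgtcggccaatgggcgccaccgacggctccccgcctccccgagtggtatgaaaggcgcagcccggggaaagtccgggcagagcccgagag
Dusp1: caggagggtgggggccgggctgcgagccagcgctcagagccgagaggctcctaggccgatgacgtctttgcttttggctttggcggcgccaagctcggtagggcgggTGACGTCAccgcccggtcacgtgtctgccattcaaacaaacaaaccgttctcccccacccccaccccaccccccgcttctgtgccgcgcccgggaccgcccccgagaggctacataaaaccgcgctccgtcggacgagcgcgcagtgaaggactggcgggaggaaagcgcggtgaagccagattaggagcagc
Scg2: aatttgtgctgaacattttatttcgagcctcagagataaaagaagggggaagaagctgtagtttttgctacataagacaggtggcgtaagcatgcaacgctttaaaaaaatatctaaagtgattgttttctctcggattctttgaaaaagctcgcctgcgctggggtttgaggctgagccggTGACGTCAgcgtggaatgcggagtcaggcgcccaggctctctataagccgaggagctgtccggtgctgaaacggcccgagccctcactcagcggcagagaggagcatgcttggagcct
The palindrome begins at base 85 of the window in Btg2, at base 108 in Dusp1 and at base 183 in Scg2. A half-site only stood in Npas4, Cyr61 and Cort, which fell, and in Ptgs2, Rgs2 and 1 of 7 promoters of Bdnf, which rose. The called peptide genes Crhbp and Trh, which rose, also held a half-site only. Ier5, Inhba, Npy and Rasgrp1, which rose, held none. A half-site stood in 20.8% of all promoters in the table and 34.7% of the tested genes found there. It stood in 72.7% of the 22 early genes and 58.8% of the 17 late genes. A match is a string of letters and not a measured binding site.

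The largest shared rises differed in size between cTKO mice. Ecel1 (chr1:87142874-87157085), an endothelin-converting enzyme-like protease of neurons, was 3.68, 3.75, 2.86, 2.62 and 1.6 CPM in hippocampal controls and 24.4, 14.8, 8.5 and 9.72 CPM in hippocampal cTKO mice. In the neocortex, Ecel1 was 5.76, 13.5, 11.3, 11.5 and 9.29 CPM in controls and 41.2, 26.9, 23.5 and 38.4 CPM in cTKO mice. Its groups were apart in both regions, and it rose 3.88-fold (log2 1.96, SE 0.214, FDR 2.38e-05). Ly6g6e, a Ly6 protein whose gene overlaps Ly6g6d, was 2.68, 2.45, 2.13, 1.76 and 2.48 CPM in hippocampal controls and 11, 9.71, 5.29 and 1.83 CPM in cTKO mice, so that mouse 5 lay among the controls. It rose 4.43-fold (log2 2.15, SE 0.328, FDR 0.000758). Fndc9, whose gene lies within Cyfip2, rose 4.06-fold (log2 2.02, SE 0.383, FDR 0.00457), with 2.66 to 4.88 CPM in neocortical controls and 6.02 to 15.4 CPM in cTKO mice. Tmem40 rose 5.14-fold (log2 2.36, SE 0.393, FDR 0.00161), with 0.533 to 1.38 against 2.49 to 10.9 CPM there. Wnt9b, a Wnt ligand overlapping Wnt3, rose 5.31-fold (log2 2.41, SE 0.442, FDR 0.00355), but its adjusted p with mouse as a random block was 0.0633, and its log2 change was 1.80 without both libraries of cTKO mouse 3. Drd4, a dopamine receptor, had 1.5 to 3.58 CPM in neocortical cTKO mice against 0.0592 to 0.454 CPM in controls. It passed the filter only through 5 cTKO libraries, so a gene at such a level had to differ, and its values are a description with no test; its hippocampal controls held 1 to 3 counts each.

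In the hippocampus, cTKO mouse 5 was the lowest cTKO library for 5 of 7 of these rises (Drd4, Wnt9b, Tmem40, Ly6g6e, Fndc9, Ecel1 and Nptx2) and lay within the control range for 6 of 7, all but Ecel1. Mouse 1 was the highest hippocampal cTKO library in 4 and mouse 3 in 3. In the neocortex mouse 2 was the lowest in 4 of 7 and mouse 3 in 3. The left-out neocortical library of mouse 5 was 1.43 CPM for Ly6g6e and 3.31 CPM for Fndc9, within the neocortical controls of 1.1 to 1.79 and 2.66 to 4.88 CPM, and 17.8 CPM for Ecel1, above their 5.76 to 13.5 CPM. In the hippocampus of mouse 5 App was 462 CPM, the highest of the 4 cTKO libraries (429.7 to 462 CPM), Aplp1 was 314 CPM, the lowest (314 to 361 CPM), and Aplp2 was 265 CPM, between the others (234 to 295 CPM). Ppfia3 in this library was 147 CPM, below the lowest hippocampal control at 171 CPM.

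**Figure D4:**
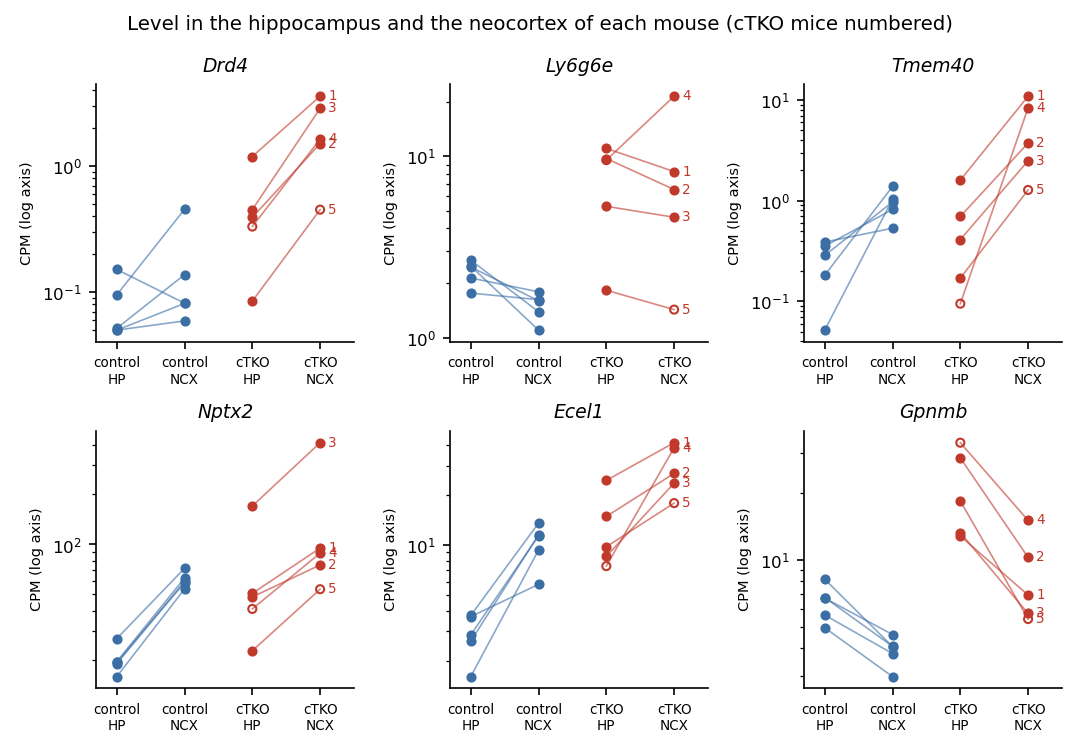
Level in CPM (log y axis, values under 0.05 drawn at 0.05) of 6 genes with large shared rises in each mouse; lines join the hippocampal and the neocortical library of a mouse, blue for controls and red for cTKO mice, whose numbers are given, and open points are the left-out libraries. The hippocampal library of cTKO mouse 5 lies within the controls for Drd4, Ly6g6e, Tmem40 and Nptx2 and above them for Ecel1 and Gpnmb.

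The larger falls were in genes of low level. Vwa3a (chr7:120737331-120805546), a von Willebrand domain protein, was 10.3, 10.4, 12, 14.5 and 11.3 CPM in hippocampal controls and 2.71, 3.22, 2.38 and 6.79 CPM in hippocampal cTKO mice. In the neocortex, Vwa3a was 8.13, 8.34, 7.57, 8.75 and 7.22 CPM in controls and 4.92, 4.51, 4.24 and 3.37 CPM in cTKO mice. The groups were apart in both regions, and Vwa3a fell by 58.9% (log2 -1.28, SE 0.173, FDR 0.000254). It belongs to the ependymal cilia list, of which 11 genes were tested, 2 fell (Vwa3a and Map3k19) and 9 were not called. This was 18.2% called against 4.16% of all genes tested, and the list median was -0.617. The summed level of that list was 59.6 to 99.8 CPM in hippocampal controls and 45.1 to 59.8 CPM in cTKO mice, and 50.6 to 67 against 39.7 to 46.7 CPM in the neocortex, with none of its genes at 0 throughout a group, and its part in the fall of Vwa3a was not tested. Map3k19, a protein kinase, fell by 34.8% (log2 -0.62, SE 0.124, FDR 0.00721). Vwa5b1 fell by 52.7% (log2 -1.08, SE 0.187, FDR 0.00216), Ecm2, a matrix protein whose gene overlaps Cenpp, fell by 45.5% (log2 -0.88, SE 0.143, FDR 0.00128), and Catsperd, a sperm channel subunit, passed the filter only through control libraries and is given with no test (0.828 to 1.71 CPM in neocortical controls, 0.474 to 0.805 CPM in cTKO mice). Sec1, overlapping Ntn5, had log2 -1.01 (FDR 0.0123), while Cldn22 fell by 49.9% (FDR 0.0195) and BC030499 by 50.01% (FDR 0.00541).

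Potassium channels set the resting excitability of neurons, and 43 potassium and HCN channel genes were tested: 4 fell, 1 rose and 38 were not called (11.6%). Kcnq3, a subunit of the M-current channel, was 47.7, 37.9, 45.1, 46.1 and 50.6 CPM in hippocampal controls and 24.6, 21.8, 33.6 and 37.4 CPM in hippocampal cTKO mice. In the neocortex, Kcnq3 was 58.5, 54, 54.4, 45.8 and 45.9 CPM in controls and 45.8, 39.7, 28.4 and 40.6 CPM in cTKO mice. The genotypes did not overlap in either region, by a margin of under 1 CPM, and Kcnq3 fell by 30.7% (log2 -0.53, SE 0.104, FDR 0.00578). Kcnh7 and Kcnh5, channels of the ether-a-go-go family, had log2 -0.65, FDR 0.0153 and log2 -0.56, FDR 0.00511. Without hippocampal cTKO 5 the list gave 2 rises and 6 falls, and without hippocampal control 3 it gave 3 calls, all falls. Among protein kinase C and phospholipase C genes, 3 of 24 fell and 1 rose (16.7%): beside Prkcb and Rasgrp1 these were Plcb4 (log2 -0.33, FDR 0.017), whose hippocampal p was 0.173 unadjusted, and Plcg2 (log2 -0.33, FDR 0.011).

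Of 14 genes of the Bcl2 family tested, 1 fell and 1 rose (14.3%), and without hippocampal cTKO 1 the fall alone was called. Hrk, a BH3-only activator of cell death, was 66, 77.1, 60.8, 88.1 and 93.4 CPM in hippocampal controls and 53.8, 49.8, 43 and 48.5 CPM in hippocampal cTKO mice. In the neocortex, Hrk was 46.1, 43.7, 46.3, 52.5 and 42.4 CPM in controls and 39, 29.8, 33.7 and 30.4 CPM in cTKO mice. Its groups were apart in both regions, and Hrk fell by 32.8% (log2 -0.57, SE 0.083, FDR 0.00049). Bcl2 itself was not called (log2 -0.21, FDR 0.165).

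Ligands and receptors of the BMP, activin and TGF-beta family were called in 6 of 42 genes tested (14.3%), 5 up and 1 down, with a list median of -0.0163. The ligand Bmp3 was 4.39, 2.32, 3.9, 2.81 and 3.36 CPM in hippocampal controls and 13, 11.6, 18 and 7.34 CPM in hippocampal cTKO mice, and 13.5 to 18.3 against 26.8 to 43.5 CPM in the neocortex. All cTKO libraries were above all controls. Both Acvr1 and Acvr1c, type I receptors, were called higher: Acvr1 was 40.6 to 45.6 CPM in hippocampal controls against 60.8 to 88.2 CPM in cTKO mice and rose 1.41-fold (log2 0.50, SE 0.0774, FDR 0.000816), and Acvr1c rose 1.85-fold (log2 0.89, SE 0.153, FDR 0.00215). Tll1, a metalloprotease that frees BMPs from their antagonists, rose 2.01-fold (log2 1.01, SE 0.184, FDR 0.0033). Nrros, a protein of microglia that holds latent TGF-beta, fell by 32.2% (log2 -0.56, SE 0.108, FDR 0.00529). With mouse as a random block the family gave 4 rises and 1 fall.

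Of 56 collagen and matrix genes tested, 6 rose, 1 fell and 49 were not called (12.5%), with a list median of 0.0269; without hippocampal cTKO 1 the list gave 3 rises and 2 falls, and summed per mouse 1 and 1. Gldn, a matrix protein of the node of Ranvier, was 1.56, 2.54, 2.09, 2.19 and 1.86 CPM in hippocampal controls and 10.3, 3.92, 3.16 and 2.72 CPM in hippocampal cTKO mice, with mouse 1 highest, and rose 2.46-fold (log2 1.30, SE 0.25, FDR 0.00512). Col6a1 rose 2.01-fold (log2 1.01, SE 0.209, FDR 0.00892), of which the hippocampus gave log2 1.61 and the neocortex 0.45 with an unadjusted p of 0.0685. Ecm1 rose 1.43-fold (log2 0.52, SE 0.112, FDR 0.0123). Among 42 proteases and inhibitors tested, 6 rose and 36 were not called (14.3% called), with a list median of 0.0547. Serpinf1, which encodes the secreted serpin PEDF, was 19.1, 19.1, 19.1, 17.8 and 10.4 CPM in hippocampal controls and 28.2, 32.2, 24.1 and 20.2 CPM in hippocampal cTKO mice. In the neocortex, Serpinf1 was 7.97, 10.5, 9.11, 9.33 and 11.2 CPM in controls and 17.7, 16.5, 13 and 17.2 CPM in cTKO mice. The groups did not overlap, and Serpinf1 rose 1.6-fold (log2 0.67, SE 0.113, FDR 0.00168). Adamts18 rose 2.21-fold (log2 1.15, SE 0.211, FDR 0.0037) and Prss23 rose 1.84-fold (log2 0.88, SE 0.178, FDR 0.00757). Prss22, which passed the filter through 4 cTKO libraries and 1 control, was called (FDR 0.0226) with 1.36 to 3.27 CPM in neocortical cTKO mice against 0.344 to 1.14 CPM in controls, and held 0 or 1 count in each hippocampal control.

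Among genes listed as markers of interneurons, a cell type that the Cre transgene does not target, those for GABA synthesis and release rose by small amounts. Each library holds RNA of all cells, so which cells these changes came from was not tested. Of 22 interneuron markers tested, 5 rose, 1 fell and 16 were not called (27.3%), with a list median of 0.112. Gad2, an enzyme that makes GABA, was 212, 200.3, 189, 199 and 232 CPM in hippocampal controls and 269.5, 259.5, 255 and 249.6 CPM in hippocampal cTKO mice. In the neocortex, Gad2 was 246, 253, 219, 217 and 222 CPM in controls and 371, 352, 259 and 349 CPM in cTKO mice. The groups were apart in both regions, and Gad2 rose 1.34-fold (log2 0.42, SE 0.0648, FDR 0.000764). Gad1, the other GABA-making enzyme, rose 1.17-fold (log2 0.23, SE 0.0529, FDR 0.0178), and Slc32a1, the vesicular GABA transporter, rose 1.2-fold (log2 0.26, SE 0.0609, FDR 0.0186). Npy, also counted among the late genes, was 73.2, 80.5, 64.2, 81.4 and 70.7 CPM in hippocampal controls and 249, 277, 136 and 80.3 CPM in hippocampal cTKO mice, where mouse 5 lay within the controls. Lamp5 fell by 29.3% (log2 -0.50, SE 0.0872, FDR 0.00226), with 36.1 to 44.8 CPM in hippocampal controls against 25.9 to 32.3 CPM in cTKO mice. In the neocortex, Lamp5 was 207 to 256 CPM in controls and 117 to 221 CPM in cTKO mice. There cTKO library 3, at 221 CPM, lay within the controls. Summed per mouse, edgeR's test gave Lamp5 an FDR of 0.164. The class markers Sst (log2 0.12, FDR 0.461), Vip (log2 -0.16, FDR 0.388) and Pvalb (log2 -0.09, FDR 0.569) were not called. The summed level of the list was 1819 to 2203 CPM in hippocampal controls and 2248 to 2454 CPM in cTKO mice, and 2209.9 to 2517 against 2557 to 2633 CPM in the neocortex, so the sums did not overlap in either region. With all 20 libraries 2 rose and 1 fell.

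Excitatory neuron markers gave 2 rises, 1 fall and 16 not called of 19 tested (15.8%), and their sum was 15024 to 16915 CPM in hippocampal controls and 15817 to 17058 CPM in cTKO mice, and 14174 to 15340.5 against 13201 to 16017 CPM in the neocortex, with overlap in both regions. Without hippocampal cTKO 5 the excitatory list gave 4 rises and 1 fall, and summed per mouse edgeR's test called 0 of it (7 at an unadjusted p under 0.05). Over all 13951 genes tested in the summed fit, 2185 had an unadjusted p under 0.05. Neuropeptide genes gave 4 rises and 1 fall of 19 tested (26.3%), and 3 calls, all rises, without hippocampal cTKO 1. Beside Npy and Penk, Crhbp, the binding protein of corticotropin-releasing hormone, rose 1.41-fold (log2 0.49, SE 0.0933, FDR 0.00459), with 20.1 to 23.7 CPM in neocortical controls and 30.2 to 38.7 CPM in cTKO mice. In the hippocampus, Crhbp was 20.3 to 29.5 CPM in controls and 23.9 to 39.9 CPM in cTKO mice, which overlap.

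Glia gave a few calls among many markers that were not called. Of 16 genes of activated microglia and macrophages tested, 3 rose and 13 were not called (18.8% called). Gpnmb, a lysosomal glycoprotein of phagocytes, was 4.95, 5.64, 8.17, 6.76 and 6.72 CPM in hippocampal controls and 12.8, 28.6, 13.2 and 18.3 CPM in hippocampal cTKO mice. In the neocortex, Gpnmb was 2.98, 3.79, 4.07, 4.08 and 4.61 CPM in controls and 6.94, 10.2, 5.73 and 15 CPM in cTKO mice. The groups were apart in both regions, and Gpnmb rose 2.64-fold (log2 1.40, SE 0.181, FDR 0.00015). Cxcr4, a chemokine receptor, rose 2.03-fold (log2 1.02, SE 0.196, FDR 0.00503). Among 21 microglia markers, Blnk, an adaptor of immune receptor signalling, rose 1.85-fold (log2 0.89, SE 0.149, FDR 0.00168), Nrros fell (log2 -0.56, FDR 0.00529), and 19 were not called (9.52% called), with a list median of -0.0985. Cx3cr1 (log2 -0.10, FDR 0.382), P2ry12 (log2 -0.14, FDR 0.265), Tmem119 (log2 -0.13, FDR 0.265) and Cd68 (log2 0.30, FDR 0.0614) were among those not called. The microglia sum was 689 to 811 CPM in hippocampal controls and 614 to 797 CPM in cTKO mice, and 579 to 648 against 571 to 635 CPM in the neocortex, which overlap in both regions.

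Of 18 astrocyte markers tested, 1 rose, 2 fell and 15 were not called (16.7% called), and without hippocampal cTKO 5 the list gave 3 rises and 2 falls. Gfap, the intermediate filament of reactive astrocytes, was 335, 406, 419, 418 and 549.6 CPM in hippocampal controls and 1456, 634, 741 and 427 CPM in hippocampal cTKO mice. In the neocortex, Gfap was 76.2, 106, 107, 118 and 148 CPM in controls and 169, 126, 183 and 501 CPM in cTKO mice. Single libraries stood out, mouse 1 in the hippocampus and mouse 4 in the neocortex, and mouse 5 lay within the hippocampal controls. Gfap rose 2.05-fold (log2 1.03, SE 0.236, FDR 0.0169). Gjb6, the gap junction protein connexin 30, fell by 17.5% (log2 -0.28, SE 0.0633, FDR 0.0167). Aqp4, the water channel of astrocyte endfeet (log2 0.07, FDR 0.665), and Mbp, a protein of myelin (log2 0.01, FDR 0.987), were not called.

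The clock and stress-hormone lists held falls. Of 22 circadian and PAR bZIP genes tested, 3 fell and 19 were not called (13.6% called), with a list median of -0.0755; without hippocampal control 3, hippocampal control 4 or hippocampal cTKO 1, and also summed per mouse, 1 fell. Hlf, a PAR bZIP factor with daily rhythm, was 230.2, 207, 183, 235 and 259 CPM in hippocampal controls and 101, 139.6, 130.1 and 216 CPM in hippocampal cTKO mice. In the neocortex, Hlf was 361, 338, 358, 339 and 377 CPM in controls and 233, 248, 289.7 and 270.4 CPM in cTKO mice. Only hippocampal cTKO 5, at 216 CPM, overlapped the controls of its region, and Hlf fell by 30.8% (log2 -0.53, SE 0.103, FDR 0.00541). Of 18 glucocorticoid-responsive genes tested, 3 fell and 15 were not called (16.7% called), with a list median of -0.193; Pdk4, which shuts off pyruvate oxidation, fell by 28.1% (log2 -0.48, SE 0.0898, FDR 0.00449). Among 29 lysosome genes 2 rose and 27 were not called (6.9% called): Atp6v1a, a subunit of the proton pump, rose 1.22-fold (log2 0.28, SE 0.054, FDR 0.00457), and Gla, the enzyme alpha-galactosidase A, rose 1.26-fold (log2 0.33, SE 0.0727, FDR 0.0137). Of 22 mitotic genes 2 rose (9.09%); Foxm1 was 1.76 to 2.17 CPM in hippocampal controls and 2.29 to 3.61 CPM in cTKO mice, and 11.9 and 13.5 CPM in the left-out libraries with embryonic RNA, and rose 1.61-fold (log2 0.68, SE 0.119, FDR 0.00222).

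Other lists gave 0 calls in edgeR's test. Over all 14116 genes tested, 2710 had an unadjusted p under 0.05 in the same test. At an unadjusted p under 0.05 there were 6 of 22 genes of endothelium and pericytes, 4 of 13 of choroid plexus, 5 of 15 of leptomeninges, 1 of 4 of embryonic tissue, 1 of 22 of cholesterol synthesis, 2 of 23 of the unfolded protein and heat shock list, 0 of 18 of the interferon response and 0 of 5 sex-linked genes. DESeq2 called 1 gene of the unfolded protein and heat shock list and 0 of the others, and limma-voom called 0 of all of them. The choroid plexus list had a median of -1.18, from a median of -1.58 in the hippocampus, where control 3 stood apart, and 0.179 in the neocortex, and Ttr was not called (log2 -1.30, FDR 0.265).

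**Figure D5:**
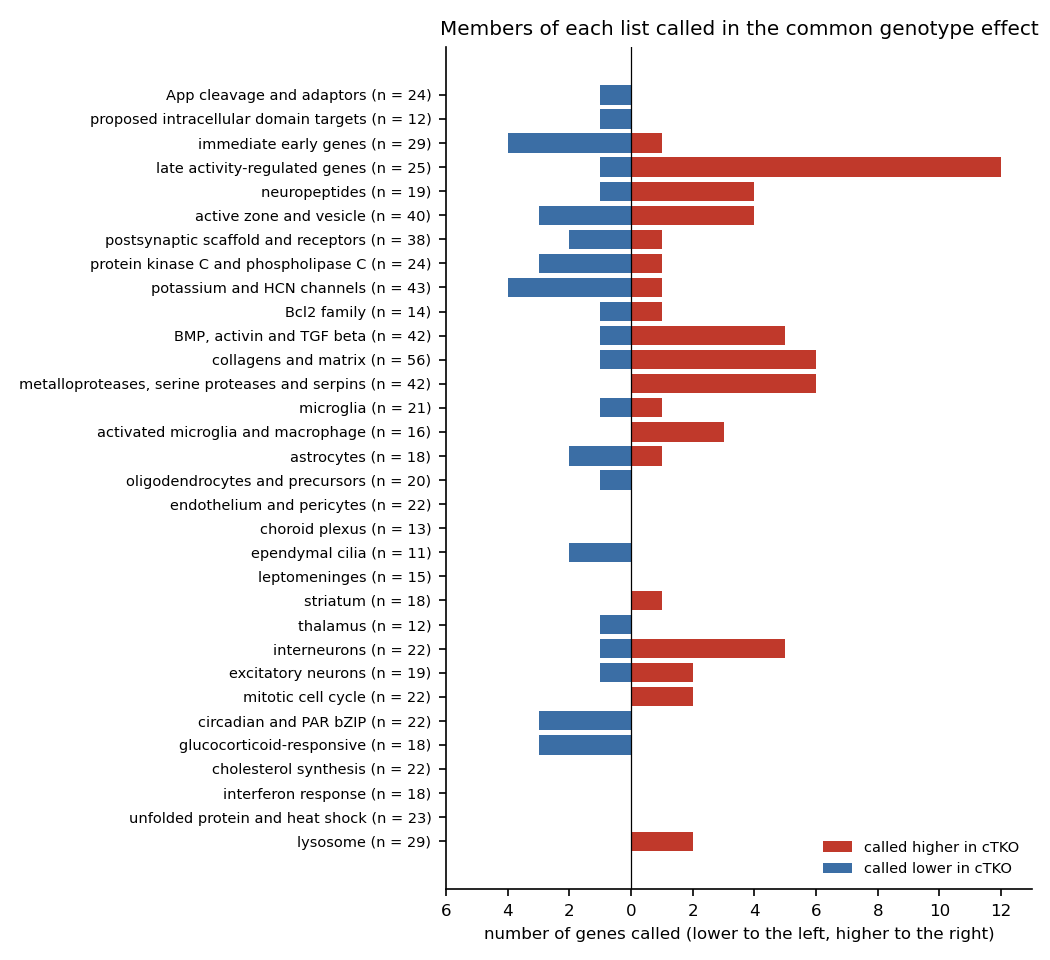
Number of genes called higher (bars to the right of 0) and lower (bars to the left) in cTKO mice in each gene list, with the number of genes tested (n) beside the list's name. The late activity-regulated list has 12 called higher and 1 lower of 25 tested, and the active zone list 4 higher and 3 lower of 40.

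Few genes of the machinery that cuts APP were called. Of 24 genes of App cleavage and its adaptors tested, 1 fell and 23 were not called (4.17%, close to the 4.16% of all genes), with a list median of 0.00418. Bace1, the beta-secretase, had log2 0.03, FDR 0.752 and Adam10, an alpha-secretase, log2 -0.02, FDR 0.88. Of 12 genes proposed as targets of the intracellular domain, Npas4 fell and 11 were not called (8.33%). Mme, the amyloid-degrading protease neprilysin, had log2 -0.23, FDR 0.439.

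For a few genes 1 common effect did not describe both regions, at an FDR under 0.05 for the difference. Penk, the enkephalin precursor, was 30.03, 35.6, 31.4, 33.1 and 38.7 CPM in hippocampal controls and 165, 181, 169.7 and 112 CPM in hippocampal cTKO mice, against 109.7 to 181 and 158 to 289 CPM in the neocortex. The rise was larger in the hippocampus (log2 2.21) than in the neocortex (log2 0.59; FDR of the difference 0.00713). Drd1, a dopamine receptor, was 4.39, 5.12, 4.81, 4.9 and 4.6 CPM in hippocampal controls and 15.4, 19.8, 22.7 and 12.8 CPM in hippocampal cTKO mice, against 16.2 to 27.9 and 23 to 40.3 CPM in the neocortex (FDR of the difference 0.0228). Drd1 is also a marker of striatum, a list of which 1 of 18 genes was called (5.56% against 4.16% of all genes tested). The sum of this list was 424 to 459 CPM in hippocampal controls and 421 to 476 CPM in cTKO mice, which overlap. Lrrc55, a regulatory subunit of BK channels, was 10.1 to 13.2 CPM in hippocampal controls against 18.1 to 25.9 CPM in cTKO mice, and 28.2 to 32.9 against 25.1 to 29 CPM in the neocortex (FDR of the difference 0.00272). Ptchd1 had the same form, log2 0.81 in the hippocampus and -0.21 in the neocortex (FDR of the difference 0.00713). Trpa1, a sensory cation channel, was 1.62, 2.5, 1.22, 1.999 and 2.89 CPM in hippocampal controls and 0.0821 to 0.17 CPM in cTKO mice, where libraries held 2 to 4 counts, and its neocortical libraries held 0 to 7 counts. It passed the filter only through the 5 hippocampal controls, so its values are a description with no test. Without hippocampal cTKO 5 the regions differed for 31 genes and without neocortical cTKO 3 for 20, and the lowest such count was 3.

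Several called list members lay near the threshold, and single libraries decided their calls. With mouse as a random block the adjusted p rose above 0.05 for a set of genes, given here with the common log2 change, its FDR and the adjusted p with the block. Among late genes and peptides these were Inhba (log2 1.16, FDR 0.0487, 0.242 with the block), Nrn1 (log2 0.35, FDR 0.0466, 0.0856 with the block), Ptgs2 (log2 0.58, FDR 0.0403, 0.0929 with the block) and Trh (log2 1.37, FDR 0.0344, 0.173 with the block). Release and channel genes among them were Rims2 (log2 -0.19, FDR 0.0326, 0.0517 with the block) and Kcnt2 (log2 -0.33, FDR 0.0373, 0.0514 with the block). Aph1b, a subunit of gamma-secretase, had log2 -0.19 (FDR 0.0459, 0.0587 with the block). The rest were Bok (log2 0.41, FDR 0.0407, 0.111 with the block), Timp2 (log2 0.34, FDR 0.0498, 0.0684 with the block), Pdgfra (log2 -0.21, FDR 0.0329, 0.0517 with the block), Rora (log2 -0.24, FDR 0.0378, 0.0529 with the block), Rab32 (log2 0.60, FDR 0.0195, 0.0515 with the block), Ccnf (log2 0.88, FDR 0.027, 0.0989 with the block) and Col27a1 (log2 1.05, FDR 0.0241, 0.0997 with the block). Leaving out 1 library ended the call for 15 of the 18 libraries in Inhba, 13 in Nrn1, 13 in Aph1b, 13 in Timp2, 12 in Bok, 12 in Rora, 11 in Kcnt2, 10 in Ptgs2, 10 in Trh, 8 in Pdgfra and 7 in Rims2. For Ccnf these were the libraries of cTKO mouse 3 (highest FDR 0.0532), and for Col27a1 hippocampal cTKO 1 and neocortical cTKO 4 (highest FDR 0.0652).

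Other members kept an adjusted p under 0.05 with the block but lost the call with some single libraries left out. These were Arntl (log2 -0.26, FDR 0.0397), the clock factor (13 of 18 libraries, highest FDR 0.0766), Tsc22d3 (log2 -0.46, FDR 0.0427), a glucocorticoid-induced leucine zipper (13 libraries, 0.0819), Dlx5 (log2 0.32, FDR 0.0378) (12 libraries, 0.081) and Homer3 (log2 0.31, FDR 0.0378) (11 libraries, 0.0923). Matrix genes among them were Hapln4 (log2 0.39, FDR 0.0351) (10 libraries, 0.081) and Ncan (log2 0.26, FDR 0.0319) (7 libraries, 0.0659), both of perineuronal nets. Hcn3 (log2 0.28, FDR 0.0324) lost its call with 9 libraries (0.066), Dusp1 with 6 (0.0598) and Cort with 6 (0.0618). Trpa1, which passed the filter only through hippocampal controls, lost it without hippocampal cTKO 1 or 2 (0.056). The other 86 of 109 named and called genes kept the call in each fit without 1 library in which they were tested, which was 13 of the 18 for Drd4 and Prss22 and all 18 for the others. These 86 include Drd4 and Catsperd, which passed the filter only through the genotype where they were higher, so their kept calls are no support.

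The called genes were spread over the chromosomes, with 6.71% of genes tested on chromosome 1 (56 of 834), 5.61% on chromosome 16 and 5.22% on chromosome 5. Of the neighbours of the floxed genes within 1 Mb, edgeR's test called 0 of 7 near App (3 at an unadjusted p under 0.05), 0 of 8 near Aplp2 (3 at an unadjusted p under 0.05) and 1 of 53 near Aplp1, Fxyd7, which was named after its value was seen. Over all 14116 genes tested, 4.16% were called and 2710 had an unadjusted p under 0.05. Called genes that followed each other along the chromosome in runs of 3 were Slc35f5, Lypd1 and Nckap5 on chromosome 1 and Slc25a44, Sema4a and Lmna on chromosome 3, again named after their values were seen.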

How the data were processed

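Poly-A RNA-seq libraries of the hippocampus and the neocortex were analysed. Per the labels and the submitters' processing notes, the authors mapped reads to mm10 with STAR 2.5.4a and counted them per gene symbol with HTSeq; the strand setting is not given in the sources used here. The deposited values are raw counts, 1 file per library, and no further normalization was applied by the authors to these files.

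Groups came from the labels. The 18 libraries were fitted with edgeR 4.0.16 (R 4.3.3; TMM, estimateDisp, glmQLFit, glmQLFTest) with region and genotype as additive terms, on the 14116 of 24421 genes whose CPM passed 1 in 5 or more libraries; p-values were adjusted by Benjamini-Hochberg over all genes tested and called at an FDR under 0.05. A fit of 4 groups gave the effect in each region and the test of their difference. CPM values use TMM over the 18 libraries, and those of the 2 left-out libraries TMM over all 20. Single genes were also tested by an exact two-sided permutation test of log2 CPM (prior count 2) within regions, whose smallest p is 6.3e-05, and over the 10 mice, whose smallest p is 0.00794. The members and lists were chosen with earlier results of these data known. Named were App, Aplp1 and Aplp2, the 8 largest rises and 8 largest falls among called genes with an unadjusted p under 0.05 in each region, the 8 rises and 8 falls of lowest FDR among those with an absolute log2 change under 0.5, called list members and the 5 genes of lowest p for a difference between regions; members not called may be named. Some genes covered by this rule are not reported here.

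That libraries with the same number come from 1 mouse was checked: all 8 same-numbered pairs of a genotype deviated together (r 0.134 to 0.37 over 10490 genes), all 8 correlated best with their own number, and all 10 numbers shared the Xist state. Same-numbered control and cTKO libraries of a region, which come from different mice, had r from -0.265 to 0.3. These r overlap those of the pairs, so the correlations alone do not decide whether a number marks a mouse. Both libraries of a mouse entered the fit as separate samples, and p-values measure the spread between these libraries; blocking was an alternative, with limma 3.58.1 (voom and duplicateCorrelation, consensus correlation 0.121). Other alternatives were DESeq2 1.42.0, limma-voom, other filters and scalings, sex, summing per mouse and leaving out libraries. The fits were tested on simulated data with and without known changes. Of 100 genes given a 1.25-fold change there, the additive fit called 39%, and of 100 given a 2-fold change it called 95%. A gene that was not called may therefore still have changed by a small amount. No pair of libraries was a duplicate within sampling noise. Intervals and floors cover counting error only. Promoter sequences and positions are RefSeq's in GRCm38.p6, matched by symbol for 13501 genes and by synonym for 588, with 27 unmatched; promoters were found for 11177 tested genes by the same match. Figures were drawn with matplotlib 3.10.9.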

Additional observations from a re-analysis of the deposited data

Results flagged for a closer look

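Among 110 named genes in 4 groups each, 440 groups of 4 or 5 libraries, 19 held 1 library far from the others by Dixon's test at the 95% level, and chance gives about 1 in 20. In cTKO mice, neocortical library 3 was high for Nptx2 (410 CPM, others 75.2 to 95.1) and Ccnf (19.8 CPM, others 6.49 to 6.89), and neocortical library 4 for Gfap (501 CPM, others 126 to 183) and Ecm1 (15 CPM, others 12.3 to 12.4). Neocortical library 2 was high for Rims1 (209 CPM, others 186 to 188), hippocampal library 1 for Gldn (10.3 CPM, others 2.72 to 3.92) and hippocampal library 5 for Plcg2 (6.67 CPM, others 5.74 to 5.83).

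In hippocampal controls, library 5 was low for Aplp2 (489 CPM, others 633 to 681) and Serpinf1 (10.4 CPM, others 17.8 to 19.1), and library 1 for Arntl (32.4 CPM, others 36 to 37.4) and Ptchd1 (7.87 CPM, others 8.85 to 9.21). Library 3, whose choroid plexus sum stood apart, was low for Atp6v1a (584 CPM, others 634 to 653) and Slc32a1 (45 CPM, others 60.4 to 63.9) and high for Vwa5b1 (4.81 CPM, others 2.42 to 2.84), and the part of choroid plexus in these values was not tested. Prss22 was 0.043 CPM in library 2 and 0 in the other 4, all within the counting floor. In neocortical controls, library 4 was high for Drd4 (0.454 CPM, others 0.0592 to 0.138) and low for Map3k19 (5.18 CPM, others 7.08 to 7.77), library 1 was high for Rora (135 CPM, others 105 to 112) and library 3 for Nrn1 (226 CPM, others 206 to 207).

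The genotype effect differed between regions by the test of the difference for Penk, with a log2 effect in the neocortex minus that in the hippocampus of -1.62, for Drd1 (-1.48), Lrrc55 (-1.07), Ptchd1 (-1.02) and Trpa1 (4.89; it passed the filter only through hippocampal controls, so its test is no support). Embryonic markers summed to 650.5 CPM in hippocampal cTKO 4 and to 1075 CPM in neocortical cTKO 5, above every control library.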

How the results depend on the processing

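The count of 587 called genes became 828 by edgeR's likelihood ratio test, 965 by DESeq2, 584 by limma-voom, 554 with filterByExpr, 540 without a filter and 498 with all 20 libraries (380 shared with the 587). With the library number as a replicate block it was 518 (453 shared), and with mouse as a random block 409 (398 shared, 209 up and 200 down), with 320 called and seen in each region against 412. Summed per mouse it was 130 (86 up, 44 down; 2185 at an unadjusted p under 0.05), and with p under 0.01 in each region the shared count was 147. The 11 genes that differed between regions became 37 by the likelihood ratio test, 41 by DESeq2, 5 by limma-voom, 4 with filterByExpr, 8 with all 20 libraries, 16 with mouse as a block and 12 with the number as a block. With 1 library left out, called genes ran from 376 (without hippocampal control 4; 383 without hippocampal cTKO 1) to 843 (without hippocampal cTKO 5), shared genes from 300 (without neocortical control 2) to 552 (without hippocampal cTKO 5) and genes that differed between regions from 3 (without hippocampal control 1 or 3, among others) to 31 (without hippocampal cTKO 5).

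With both libraries of a mouse left out, an alternative chosen after seeing the data, called genes were 326 without cTKO mouse 1, 489 without 2 and 678 without 3, and 458, 308, 300, 282 and 283 without control mice 1 to 5. The shared count was 265 without cTKO mouse 1, and 249, 249, 236 and 244 without control mice 2 to 5. Genes that differed between regions were 5, 7 and 26 without cTKO mice 1, 2 and 3, and 1, 3, 2 and 1 without control mice 1 to 4. None of the 109 named and called genes changed direction in the settings in which it was tested, which was fewer than all 40 for 12 genes (down to 28); 50 stayed called in each setting tested, 94 with mouse as a block and 51 summed per mouse; the cause of the lost calls was not tested, except that fewer samples were used where libraries were left out or summed. The permutation test over mice gave p under 0.05 for 109 of 111 genes, the exceptions being Inhba (exact p = 0.23) and Col27a1 (exact p = 0.143). Nearly all of these genes were named because the same libraries called them, so this count is no support. Lrrc55 (exact p = 0.0159) and Ptchd1 (exact p = 0.00794) passed this permutation test too, although the common fit did not call them. Drd4, Catsperd and Trpa1 are among the genes of these counts. They passed the filter only through libraries of a single genotype, so neither their calls nor their permutation tests are support.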
